A study of Mus musculus with 16 samples.

Results

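To ask which differences remained in adult cortex when Arid1b heterozygotes had been given fluoxetine early in life, the fluoxetine-treated heterozygotes (HT-Flx, n = 4 mice) were compared with untreated wild-type mice (WT-Veh, n = 4 mice) across all genes. These 8 mice were chosen by their genotype and treatment labels from 16 mice of the series, and no expression value entered the choice. The other 8 mice were the fluoxetine-treated wild type (WT-Flx, n = 4) and the vehicle-treated heterozygotes (HT-Veh, n = 4). All 16 were male C57BL/6N mice, and RNA was sequenced from the medial prefrontal cortex (labelled prefrontal cortex) at postnatal day 120. Fluoxetine hydrochloride, a selective serotonin reuptake inhibitor, reached HT-Flx and WT-Flx pups through the milk of dams that drank 0.1 mg per ml of it in 0.2% saccharin water from postnatal day 3 to 21. Dams of the WT-Veh and HT-Veh pups drank 0.2% saccharin water alone, so every mouse had a dam on saccharin, and all had normal water after weaning. Heterozygotes carried, in every cell, a protein-truncating allele from 1 CRISPR/Cas9 line (C57BL/6N-Arid1b em1Tcp). In HT-Flx versus WT-Veh the genotype and the drug differ together, and their parts in a difference cannot be told apart within this comparison.

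Arid1b is a DNA-binding subunit of the SWI/SNF (BAF) chromatin remodelling complex, which moves nucleosomes at promoters and enhancers, and loss of 1 copy of the human gene causes a neurodevelopmental syndrome with intellectual disability and autistic features. Serotonin acts on the developing cortex as a growth signal, and blocking its reuptake in the weeks after birth alters how cortical circuits mature. The allele was made by targeting exon 5, shown here because it defines the heterozygotes. The study's methods describe a deletion whose coordinates span this exon, with the bases TT inserted. A figure legend of the study describes TT inserted where the exon begins. The sequence shown is that of the reference, not of the mutant allele. Exon 5 lies at chr17:5242828-5243071 on the plus strand of GRCm38, is the exon of that number in 4 annotated protein-coding transcripts, and is 244 bases long, which leaves a remainder of 1 when divided by 3. Its sequence in GENCODE release M21 is printed in lower case throughout.
Arid1b exon 5: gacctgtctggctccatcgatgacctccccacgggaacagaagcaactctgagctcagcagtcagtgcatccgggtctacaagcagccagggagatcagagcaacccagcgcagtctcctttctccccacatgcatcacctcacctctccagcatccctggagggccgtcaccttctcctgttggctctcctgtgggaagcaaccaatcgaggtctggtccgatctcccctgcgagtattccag

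Values are normalized read counts, that is, estimated reads per gene divided by a size factor, and the sequencing depth is unknown. Normalized totals of the 8 mice lay between 92.8% and 102% of the mean of all 16. Across the 16783 genes tested, the median correlation of log2 values was 0.980 for the 12 pairs of mice within the groups and 0.983 for the 16 pairs between them, so a mouse of the other group was as alike as one of its own. One mouse stood apart before any gene was considered. On the log2(value + 1) scale, 14 markers of the olfactory bulb averaged 9.98 in WT-Veh replicate 1, against 6.38, 6.73 and 6.34 in WT-Veh replicates 2 to 4 and 6.54, 6.90, 6.22 and 6.71 in HT-Flx replicates 1 to 4. Markers of migrating neuroblasts, the young neurons that travel to the bulb, gave 9.96 in that mouse and from 8.41 to 8.98 in the other 7. The bulb lies in front of the prefrontal cortex. Some results are therefore also given without this mouse below, and all other values of HT-Flx versus WT-Veh include it. Markers of upper-layer projection neurons, a cell type of the cortex, averaged 11.1 in WT-Veh replicate 1 on the same scale. That was the lowest of the 8 mice, and the other 7 lay between 11.3 and 11.5.

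Arid1b itself was lower in the treated heterozygotes. Its normalized count (ENSMUSG00000069729, chromosome 17, 4994332 to 5347656) was 1787, 2453, 2831 and 2401 in WT-Veh and 1669, 1661, 1671 and 1545 in HT-Flx. The groups did not overlap, and WT-Veh replicate 1 was the wild-type mouse nearest to the heterozygotes. HT-Flx averaged 1636 ± 61.02 against 2368 ± 432 in WT-Veh (mean ± SD, n = 4 each), 69.1% of the wild-type mean. The difference on the log2(value + 1) scale was -0.51 (95% interval -0.79 to -0.24), with an exact permutation p of 0.0286, two-sided, the smallest that 4 against 4 mice allow. In the limma fit across all genes its adjusted p was 0.858. The level was 2159 ± 233 in WT-Flx and 1795 ± 160 in HT-Veh. From high to low, both wild-type groups thus came before both heterozygous groups, with the vehicle group above the fluoxetine group in each genotype, and the ranges of each neighbouring pair overlapped. Without WT-Veh replicate 1 the difference was -0.64 (limma, adjusted p 0.0525, unadjusted p 5.8e-06).

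Past this gene, few large differences were measured and none passed correction. By limma with Benjamini-Hochberg adjustment, 0 of 16783 genes passed an adjusted p of 0.05 (0%), and 863 had an unadjusted p under 0.05, 415 of them higher (2.47%) and 448 lower (2.67%) in HT-Flx. HT-Flx and WT-Veh did not overlap for 320 genes that were higher in HT-Flx (1.91%) and 317 that were lower (1.89%). The median difference over all genes was 0.0062 on the log2 scale. Only 147 genes (0.876%) differed by more than 1 log2 unit. The precision of the 8 mice can be read from the intervals, since for 10705 genes (63.8%) the 95% interval of the difference lay wholly within 1.5-fold either way, and for the other genes it reached past 1.5-fold. The smallest adjusted p was 0.0627, for Gm38226, an unverified transcript on chromosome 9 that was read at 77.8, 28.9, 32.5 and 12.4 in WT-Veh and was listed at 0 in all 4 HT-Flx mice. It was also listed at 0 in 1 HT-Veh mouse. Without WT-Veh replicate 1, limma called 0 of 16631 genes, and 837 lay under an unadjusted p of 0.05.

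**Figure D1:**
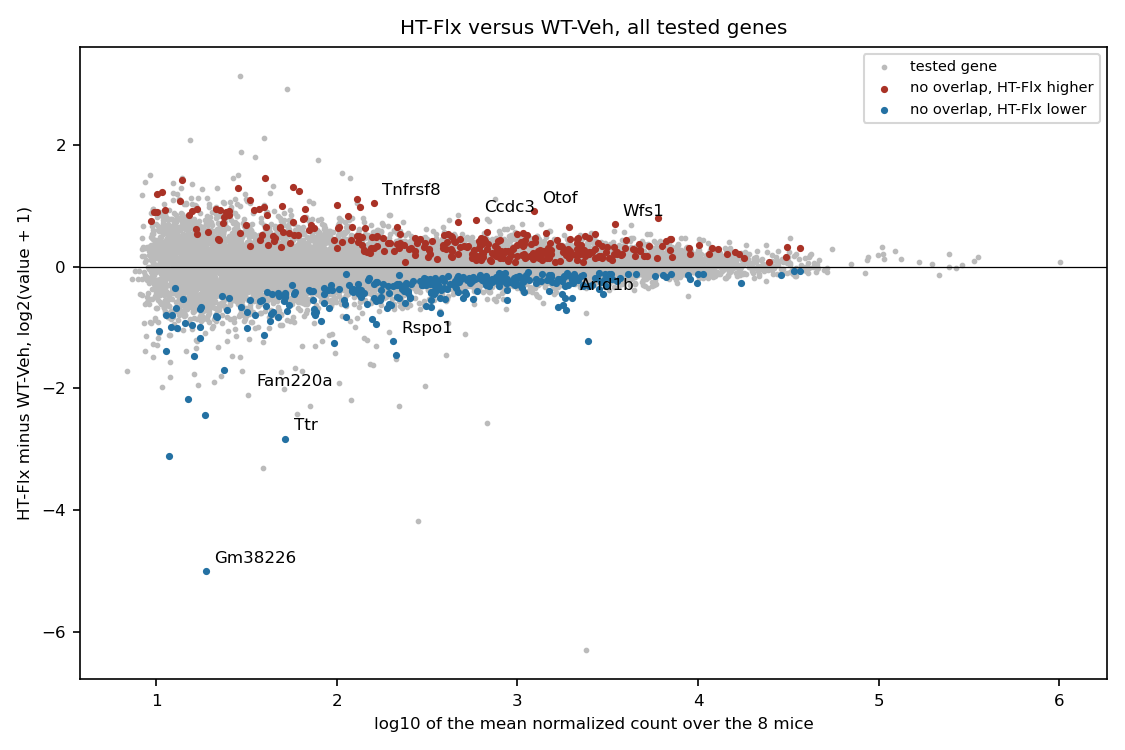
Each point is 1 of 16783 tested genes, with the log10 of its mean normalized count over the 8 mice on the x axis and the difference HT-Flx minus WT-Veh in log2(value + 1) on the y axis. Red marks the 320 genes and blue the 317 genes whose groups did not overlap, and most of these differ by less than 1 log2 unit.

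Among genes higher in the treated heterozygotes, the 12 with the smallest p (protein-coding, a mean of at least 100, no overlap) missed the threshold, with adjusted p from 0.169 to 0.858 and differences from 0.45 to 1.04. Tnfrsf8, which encodes the tumor necrosis factor receptor CD30, was read at 89.8, 98.2, 120.5 and 111 in WT-Veh and at 206.8, 203.3, 247.4 and 206.3 in HT-Flx. Every treated heterozygote had over 1.5 times the level of the highest WT-Veh mouse, and the difference was 1.04 (SE 0.15, adjusted p 0.169). Otof encodes otoferlin, a calcium sensor for vesicle fusion, and is a marker of upper-layer neurons. It was 654.8, 938.2, 881 and 969.9 in WT-Veh and 1576, 1438, 1869 and 1543 in HT-Flx, a difference of 0.91 (SE 0.13, adjusted p 0.169). Without WT-Veh replicate 1 it was 0.78 (adjusted p 0.0525). A fit that included each mouse's bulb score gave 0.79, which passed (adjusted p 0.0235), and over all alternatives its adjusted p ran from 0.00688 to 0.849. Wfs1, whose product wolframin sits in the endoplasmic reticulum membrane, was 2511, 2711, 2506 and 2721 in WT-Veh and 3889, 5513, 4153 and 3606 in HT-Flx (difference 0.70, SE 0.12, adjusted p 0.437).

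Receptor and signalling genes were found among the rest of these 12. Esr1, the estrogen receptor alpha gene, was 54.1, 89.7, 68.3 and 52.98 in WT-Veh and 119.7, 155, 93.2 and 169 in HT-Flx (difference 1.00, SE 0.24). Pdyn encodes the precursor of the opioid peptide dynorphin. It was 458.7, 563.4, 609 and 529.4 in WT-Veh and 768.8, 1044, 758.4 and 677.6 in HT-Flx (difference 0.58, SE 0.14). Smad3, a transducer of TGF-beta signals, differed by 0.45 (SE 0.12), Trp53i11 by 0.50, Sowaha by 0.47, Kctd4 by 0.46 and Podn, a secreted proteoglycan, by 0.64. The adjusted p of all of these was 0.858. Dynlt1c and Ccdc3 complete the 12 and are described with the genes beside Arid1b and with the vehicle comparison.

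Among protein-coding genes with a mean of at least 100 that were lower in the treated heterozygotes without overlap, Rspo1 had the smallest p. It encodes R-spondin 1, a secreted protein that enhances Wnt signalling by keeping Wnt receptors at the cell surface. Its normalized counts were 248.2, 302.7, 306.3 and 279.2 in WT-Veh and 141, 108.9, 159 and 85.6 in HT-Flx, so that the HT-Flx mean was 43.6% of the WT-Veh mean. The difference was -1.23 (SE 0.19, adjusted p 0.229). Pvalb, a calcium buffer that marks fast-spiking interneurons, was 819, 1126, 1132 and 1117 in WT-Veh and 785.8, 621.9, 798.6 and 640.0 in HT-Flx. The lowest WT-Veh mouse was again replicate 1. The difference was -0.56 (SE 0.13) with all 8 mice and -0.67 without that mouse (adjusted p 0.134).

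Several of the other lower genes encode structural or metabolic proteins. Col26a1, a collagen gene, differed by -0.62, Ank1, a membrane skeleton ankyrin, by -0.51, and the keratin gene Krt12 by -0.51. Adssl1, an enzyme of adenine nucleotide synthesis, was 431.3, 518.9, 457.5 and 469.6 in WT-Veh and 338, 330.1, 312.5 and 312.6 in HT-Flx (difference -0.53, SE 0.10, adjusted p 0.799). Nrep, a member of the migrating neuroblast list, differed by -0.67, or by -0.54 without WT-Veh replicate 1, its highest mouse (2673). The lipid transporter gene Abca8a differed by -0.68. Bckdhb, a subunit of the enzyme that breaks down branched-chain amino acids, differed by -0.51, and 1110008P14Rik by -0.46. With the genotype check Arid1b, these make up 11 of the 12 lower genes, whose adjusted p ran from 0.229 to 0.858.

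**Figure D2:**
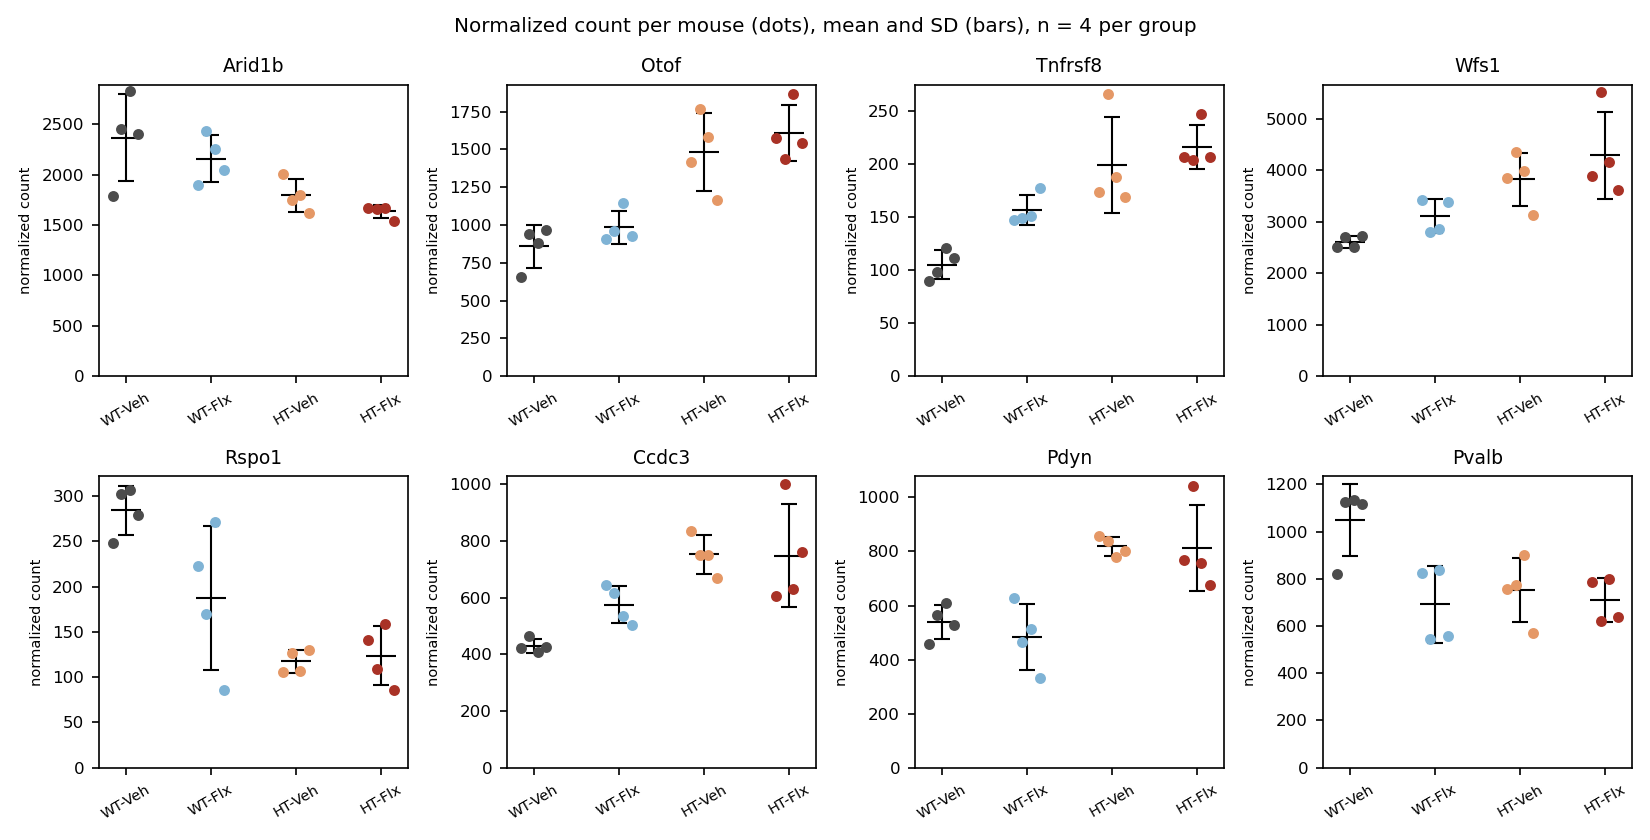
Normalized count (y axis, from 0) of 8 genes in every mouse of the 4 groups on the x axis, with dots for mice and bars for the mean and SD (n = 4). HT-Flx lies apart from WT-Veh in each panel, and the mean of HT-Veh lies nearer to that of HT-Flx than to that of WT-Veh. The means of all 3 other groups lie below that of WT-Veh for Arid1b, Rspo1 and Pvalb.

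Of the 3 genes that passed in untreated heterozygotes against the same WT-Veh mice, Rspo1 and Ccdc3 stood at nearly the same level after fluoxetine. Both comparisons share the WT-Veh mice, so their values are given side by side and not as support for each other. Rspo1 differed by -1.27 in HT-Veh (adjusted p 0.0229) and by -1.23 in HT-Flx, with means of 117 ± 12.4 and 124 ± 32.8 against 284 ± 26.8 in WT-Veh (SD, n = 4). The direct difference between HT-Flx and HT-Veh was 0.04 (SE 0.20, adjusted p 1.00). Ccdc3, which encodes a secreted coiled-coil protein, was 423.8, 466, 409.3 and 424.8 in WT-Veh, and 605.8, 999.9, 629 and 760.6 in HT-Flx. It differed by 0.80 in HT-Veh (adjusted p 0.0322) and by 0.77 in HT-Flx (SE 0.15, adjusted p 0.844). HT-Flx replicate 2 was the highest of the 16 mice for Ccdc3. The fluoxetine-treated wild type lay between for both genes on average. Ccdc3 was 576 ± 65.7 in WT-Flx, with every mouse (505 to 644) above the WT-Veh range. Rspo1 was 187 ± 79.5 in WT-Flx and spanned 85.3 to 271. Fam220a differed by -3.44 in HT-Veh and by -2.11 in HT-Flx (SE 0.56), and HT-Flx replicate 2 (41.2) lay within the WT-Veh range of 31.0 to 65.7 while the other 3 treated heterozygotes lay between 5.43 and 6.86.

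The higher genes differed in where the other groups lay. Otof averaged 861 in WT-Veh and 984.4 in WT-Flx, whereas the heterozygotes averaged 1483 (HT-Veh) and 1607 (HT-Flx), and Esr1 averaged 66.3, 72.5, 154.5 and 134 in the same order. For these genes the heterozygous groups lay together and the wild-type groups lay together. Tnfrsf8 averaged 104.9, 156, 199 and 216, so that WT-Flx stood between WT-Veh and the heterozygotes, with none of its mice (147 to 177) inside the WT-Veh range. Wfs1 averaged 2612, 3114, 3826 and 4291. Sowaha averaged 1818, 1846, 2069 and 2526, so that HT-Veh lay nearer to the wild-type groups, and HT-Flx differed from HT-Veh by 0.28 (SE 0.10, adjusted p 1.00). Among lower genes, Pvalb averaged 1048 in WT-Veh against 691.5, 750.8 and 711.6 in the others, and Col26a1 242.6 against 174, 182 and 158. Here the mean of WT-Veh was above those of all 3 others, with single mice overlapping. The direct difference HT-Flx minus WT-Flx was 0.06 for Pvalb (SE 0.17, adjusted p 0.918).

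The other 8 mice offer a comparison that shares no mouse with HT-Flx versus WT-Veh. In HT-Veh versus WT-Flx the genotype differs in the same direction and the drug in the opposite one. By limma 3 of 16883 genes passed (0.0178%), and the groups did not overlap for 356 genes higher (2.11%) and 497 lower (2.94%) in HT-Veh. Among 16554 genes tested in both comparisons, 319 did not overlap and were higher in HT-Flx, and 34 of these were also higher without overlap in HT-Veh over WT-Flx. These were 10.7% of the first list and 9.69% of the second, where 2.12% of all genes tested in both were called so in the second. For genes lower in HT-Flx the shared number was 19 of 316 (6.01% of the first list and 3.86% of the second), where 2.97% of all were called. Calls in opposite directions were 2 of 319 (0.627%, against 2.97% of all) and 3 of 316 (0.949%, against 2.12%). The olfactory bulb score was 8.20, 8.72, 6.84 and 9.71 in the WT-Flx mice and 6.67, 6.46, 6.57 and 8.68 in the HT-Veh mice, and its part in these counts was not tested.

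Of the 12 higher genes named above, all 12 had the same sign in the other 8 mice, and Otof, Ccdc3, Dynlt1c, Esr1, Pdyn and Smad3 again did not overlap. Over all genes tested in those mice, 8733 of 16883 were higher in HT-Veh, and 2.11% were higher and 2.94% lower without overlap. Esr1 differed there by 1.08 (unadjusted p 0.00191), Pdyn by 0.79 (unadjusted p 0.000456) and Otof by 0.58 (unadjusted p 0.000883), and none of the 12 passed correction by limma. Of the 12 lower genes, 7 had the same sign and 0 were without overlap. Bckdhb differed by -0.55, Rspo1 by -0.55, Adssl1 by -0.35, Nrep by -0.30 and Arid1b by -0.26 there, while Pvalb, Col26a1, Krt12 and Ank1 lay between 0.01 and 0.13. The last 4 genes were thus lower in HT-Flx than in WT-Veh but were not lower in HT-Veh than in WT-Flx.

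**Figure D3:**
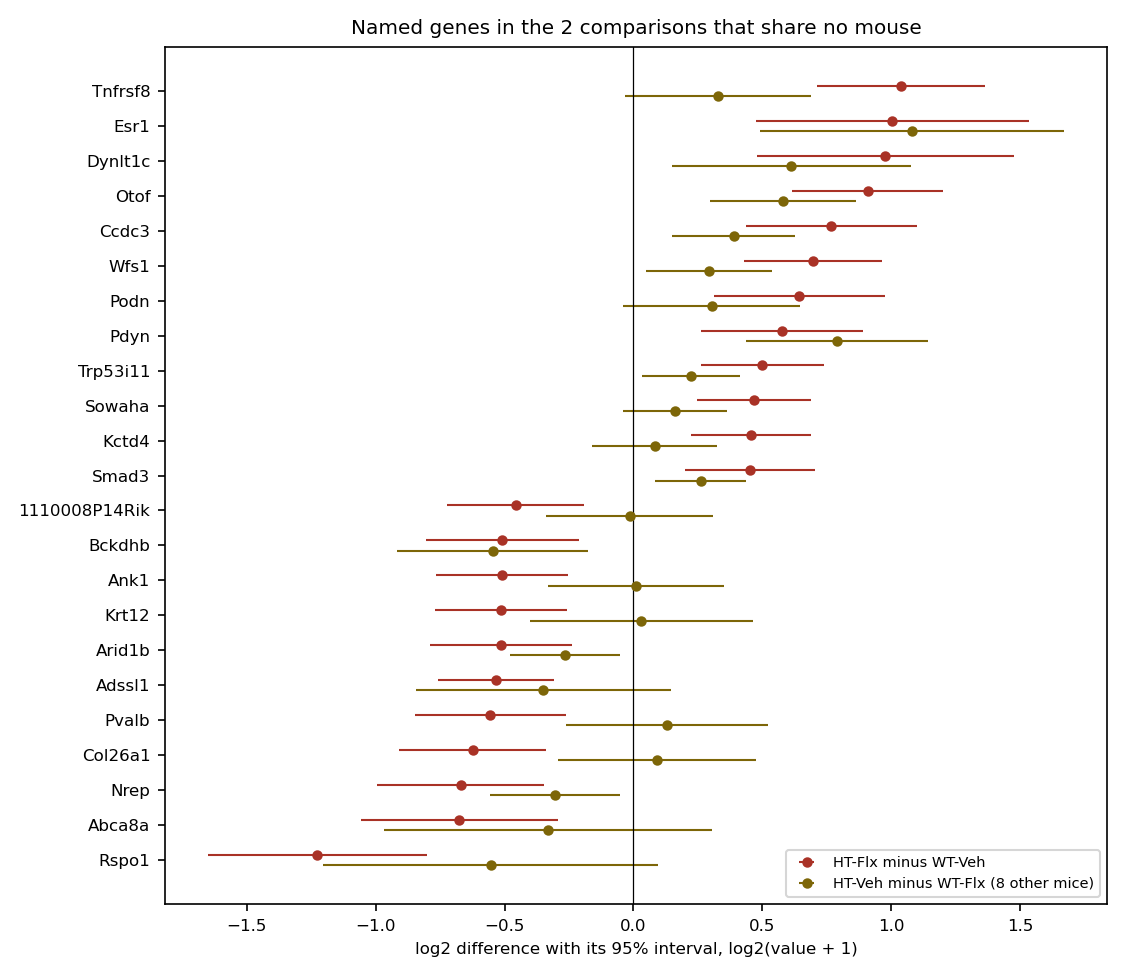
Log2 difference with its 95% interval (x axis) of 23 named genes (y axis) in HT-Flx minus WT-Veh (red) and in HT-Veh minus WT-Flx (brown), 2 comparisons with no mouse in common. All 12 higher genes lie right of 0 in both, whereas 4 of the 11 lower genes shown lie right of 0 in brown.

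Genes shared by both comparisons without overlap include several that were not among the 24, chosen here after their values were seen. In 14 of the 34 higher and 8 of the 19 lower genes, no heterozygote of the 8 overlapped any wild-type mouse of the 8. The 34 and 19 had already been picked for no overlap in both comparisons. The 14 and 8 are thus also the counts among all 16554 genes tested in both. Ccdc88c, a regulator of Wnt signalling, spanned 908.2 to 1323 in WT-Veh and 973.9 to 1361 in WT-Flx, below the 1447 to 1532 of HT-Veh and the 1402 to 2010 of HT-Flx. Orai2, a calcium channel subunit, and Ddn, which encodes the postsynaptic protein dendrin, differed in HT-Flx versus WT-Veh by 0.45 and 0.31, and in the other mice by 0.28 and 0.24. Without WT-Veh replicate 1 the differences in HT-Flx versus WT-Veh were 0.31 and 0.30. Ptgdr, a prostaglandin D2 receptor gene, was 19.9 to 29.1 in WT-Veh and 37.8 to 62.5 in HT-Flx. On the lower side, the potassium channel subunit gene Kcnab3 was 1695 to 2862 in WT-Veh and 1011 to 1600 in HT-Flx. It differed by -0.64, by -0.50 without WT-Veh replicate 1, and by -0.38 in the other mice. Phgdh, the first enzyme of serine synthesis, differed by -0.41 and -0.21, and Sncb, which encodes beta-synuclein, by -0.21 and -0.24. No overlap between the genotypes over 16 mice was therefore found at differences as small as these.

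SWI/SNF subunits, Arid1b included, were split in direction. Of 30 listed genes, all 30 were tested, 17 were higher and 13 lower, 0 passed correction, and the median difference was 0.02 against 0.0062 over all genes, turning negative under a common upper quartile and under quantile normalization. Smarcc1, a core subunit, was 1586, 1714, 1834 and 1749 in WT-Veh and 1858, 2432, 1978 and 2167 in HT-Flx (difference 0.29, SE 0.10, adjusted p 0.858). It was the 1 member higher without overlap, where 1.91% of all genes were. The paralog Arid1a is on the list and did not pass. Bcl7a differed by 0.21 and Dpf3, a reader of histone marks, by 0.41, with overlap. Autism-linked regulators of chromatin and transcription were higher in 22 of 26 tested, with a median of 0.14, but without WT-Veh replicate 1 in 12 of 26, with a median of -0.0075. Tcf20 was the member besides Arid1b that did not overlap, and WT-Veh replicate 1 (2021) lay far below the other WT-Veh mice (2994 to 3106) for it.

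The study examined the class IIa deacetylase HDAC4 and the transcription factor MEF2A, which HDAC4 represses. For these proteins it reported changes in the amount of HDAC4 and in the phosphorylation of MEF2A. The total level of MEF2A in whole brain was unchanged, and MEF2A could not be detected in its prefrontal samples. No significant change of the transcripts of either was found by the study in adult heterozygotes. The values here are of RNA and do not measure those proteins. Of 15 tested genes of this pathway, 11 were higher and 4 lower, with a median of 0.11, and 0 had an unadjusted p under 0.05. Over all genes 2.47% were higher and 2.67% lower at that p, so a list this short can hold none. Hdac4 was 1316, 2151, 2204 and 2046 in WT-Veh and 1975, 2801, 2004 and 1955 in HT-Flx, a difference of 0.19 (SE 0.17), or 0.02 without WT-Veh replicate 1. Mef2a was 4201, 4386, 4621 and 4638 in WT-Veh and 4728, 5906, 4210 and 5134 in HT-Flx (difference 0.15, SE 0.10), with overlap. Without WT-Veh replicate 1 the median of the pathway was -0.012. Targets of the fragile X protein, an RNA-binding repressor of translation, were higher in 7 of 10 with a median of 0.07. The study chose these targets from its own data on this mouse line, so their direction is not independent evidence. Without WT-Veh replicate 1 it was higher in 2 of 10, with a median of -0.07.

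Genes of excitatory synapses gave counts that depended in part on WT-Veh replicate 1. AMPA and NMDA receptor subunits and their partners were higher in 15 of 20 tested, with a median of 0.06 and 0 past the threshold, and without WT-Veh replicate 1 in 12 of 20, with a median of 0.09. Grin3a and Gsg1l were higher without overlap, where 1.91% of all genes were. Grin3a, an NMDA receptor subunit that lowers calcium entry, was 806.7, 1064, 945.8 and 999.4 in WT-Veh and 1123, 1275, 1216 and 1325 in HT-Flx (difference 0.38, SE 0.10). Gsg1l, an AMPA receptor partner, was 1686, 2557, 2833 and 2663 in WT-Veh and 3208, 3088, 3159 and 3098 in HT-Flx (difference 0.39, and 0.23 without WT-Veh replicate 1). Postsynaptic scaffold and adhesion genes were higher in 26 of 33, with a median of 0.08, but in 19 of 33, with a median of 0.0093, without that mouse. Shank3, a scaffold of the postsynaptic density, differed by 0.19 (SE 0.11) and Shank2 by 0.34 (SE 0.19). Of the 33, 0 had an unadjusted p under 0.05, where 2.47% of all genes were higher and 2.67% lower at that p.

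Presynaptic release genes split by member. Cplx1, a complexin that clamps vesicle fusion, differed by -0.28 (SE 0.09) and Syn2, a synapsin, by 0.29 (SE 0.10), both without overlap, as were Syp and Vamp2 on the lower side. Over all genes, 1.91% were higher and 1.89% lower without overlap. The fast calcium sensor Syt2 was 941.2, 1527, 1942 and 1683 in WT-Veh and 1047, 1159, 1031 and 974.3 in HT-Flx. Only WT-Veh replicate 1 overlapped the treated heterozygotes, and the difference was -0.49 with it and -0.70 without it. Over the 27 tested genes the median was 0.06 with 14 higher, and without that mouse it was -0.06 with 6 higher. Genes of inhibitory transmission and interneuron markers were lower in 20 of 31, with a median of -0.05, and without WT-Veh replicate 1 they were higher in 14 of 31, with a median of -0.011. Beside Pvalb, the peptide genes Sst and Npy, which mark other interneuron classes, differed by -0.19 (SE 0.08) and -0.34 (SE 0.11), and Calb1 by 0.24 (SE 0.07). In this list 4 genes were lower and 1 higher at an unadjusted p under 0.05, where 2.67% and 2.47% of all genes were, and 0 passed correction. In bulk tissue fewer cells of a type and less RNA per cell cannot be told apart.

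Serotonin receptor genes, whose products bind the transmitter whose reuptake fluoxetine blocks, showed no member without overlap and none with an unadjusted p under 0.05. Over all genes, 1.91% were higher and 1.89% lower without overlap, and 2.47% and 2.67% had such a p. A list this short can therefore hold none at the share of all genes. Of 14 listed, 12 were tested, 7 were higher and 5 lower, and the median was 0.07. Htr2a, an excitatory receptor of cortical pyramidal neurons, was 984.0, 1065, 980.8 and 1150 in WT-Veh and 1008, 964.9, 1285 and 1777 in HT-Flx, a difference of 0.23 (SE 0.17). Htr6 differed by 0.37 (SE 0.20) and Htr1f by -0.46 (SE 0.29). Of 23 genes of monoamine synthesis, transport, breakdown and reception, 17 were tested, 10 were higher and 7 lower, with a median of 0.11, or 0.02 without WT-Veh replicate 1. Slc22a3, a low-affinity monoamine transporter, was 74.3, 49.7, 49.1 and 48.3 in WT-Veh and 92.1, 87.1, 78.2 and 95.7 in HT-Flx (difference 0.68, SE 0.20, adjusted p 0.858). Here WT-Veh replicate 1 was the highest of its group, and without it the difference was 0.83. Tph2, the enzyme of serotonin synthesis in the brain stem, was read at low levels of 17.2 to 27.7 in WT-Veh and 11.2 to 15.8 in HT-Flx.

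Ribosomal and respiratory chain genes were the lists in which nearly all members had the same sign. Of 83 tested nuclear genes of the respiratory chain, 79 were lower in HT-Flx, 23 of them at an unadjusted p under 0.05 and 13 without overlap, where 2.67% and 1.89% of all genes were, with 0 past correction and a median of -0.19. Cox6a2, the muscle-type subunit of complex IV, was 82.6, 121.7, 120.8 and 101.9 in WT-Veh and 73.6, 58.4, 56.4 and 40.8 in HT-Flx (difference -0.90, SE 0.22). Cox7b, another subunit of that complex, differed by -0.30 (SE 0.09). Cytoplasmic ribosomal protein genes were lower in 78 of 82, with a median of -0.16, and mitochondrial ribosomal protein genes in 69 of 78, with a median of -0.14. WT-Veh replicate 1 had the highest mean log2 level of the 8 mice for each of these lists, for instance 11.5 for the cytoplasmic ribosomal proteins against 10.9 to 11.1 in the other 7. Without it the medians were -0.10, -0.038 and -0.051, and 26 of 82 cytoplasmic and 23 of 78 mitochondrial ribosomal protein genes were higher. The respiratory chain genes were then still lower in all but 8 of 83. In the other 8 mice these lists had medians of -0.02, 0.02 and -0.04 (HT-Veh minus WT-Flx). Among the 13 mitochondrially encoded genes of the chain, 10 were higher, with a median of 0.09, or 8 with a median of 0.04 without that mouse.

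**Figure D4:**
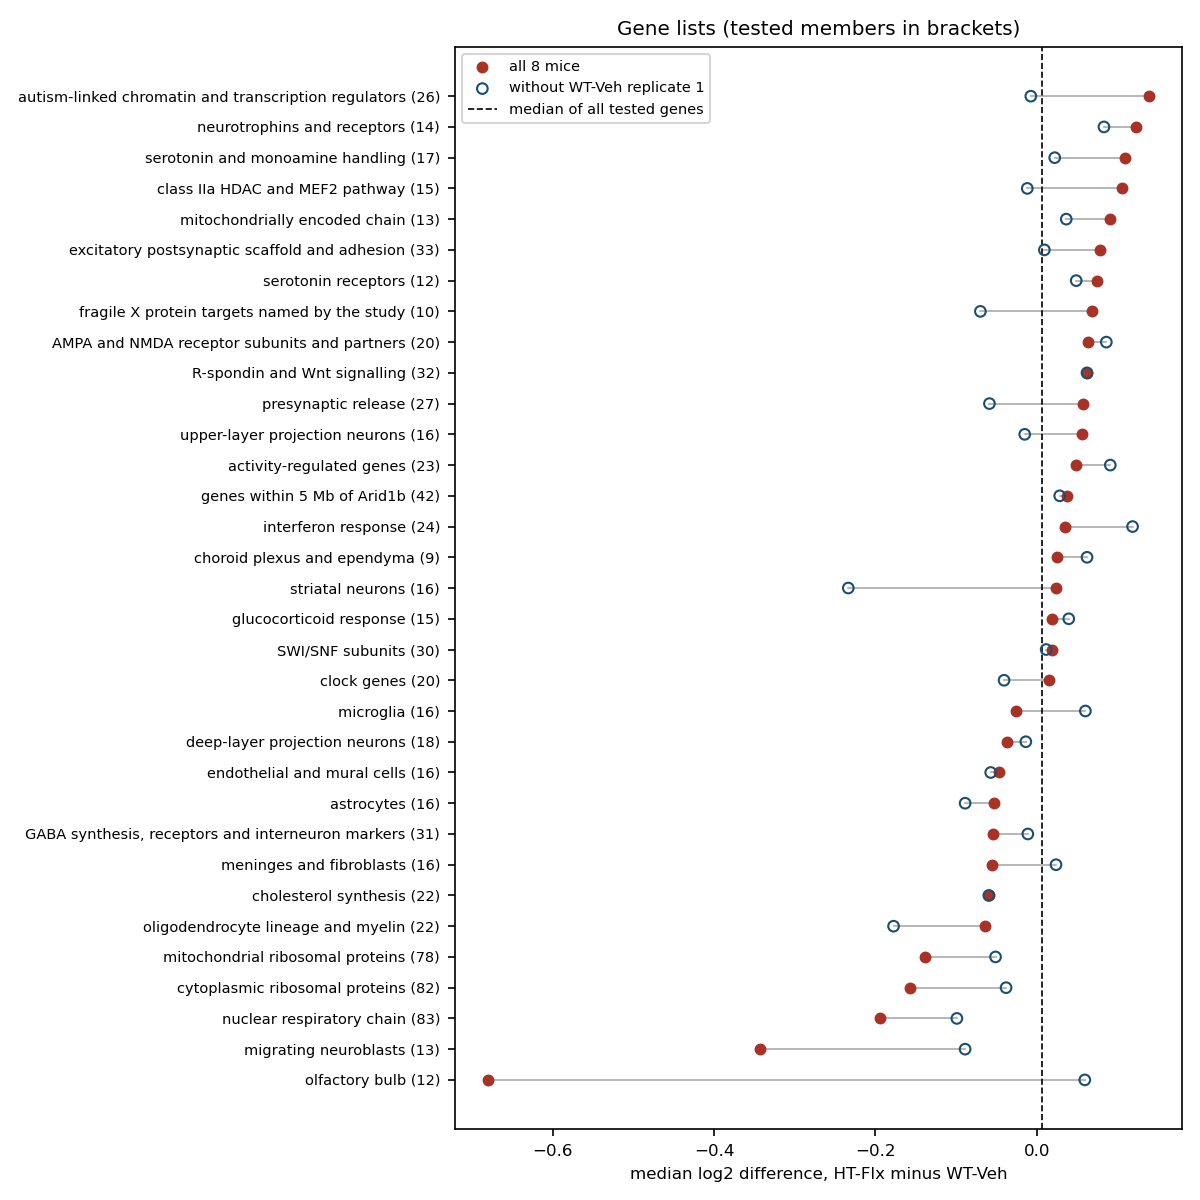
Median log2 difference HT-Flx minus WT-Veh (x axis) of 33 gene lists (y axis, with the number of tested members) with all 8 mice (filled) and without WT-Veh replicate 1 (open). The dashed line is the median of all tested genes, 0.0062, and leaving out the mouse moves the olfactory bulb list from -0.68 to 0.06 and the cytoplasmic ribosomal proteins from -0.16 to -0.038.

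Wnt pathway genes other than Rspo1 included Rspo3 and Wnt5a, which differed by -0.63 (SE 0.24) and -0.59 (SE 0.19) with overlap, and the secreted Wnt antagonist Sfrp1. The last was 389.9, 399.6, 405.8 and 369.4 in WT-Veh and 524.7, 566, 534.5 and 447 in HT-Flx (difference 0.40, SE 0.11), with no overlap. Lgr5, a receptor for R-spondins, differed by -1.46 (SE 0.68) without overlap, or by -0.56 without WT-Veh replicate 1. Over the list, 20 of 32 genes were higher with a median of 0.06, while the mean log2 level was lower by 0.10. Activity-regulated genes were uneven between mice. Fosb, an immediate early gene, was 276.9, 291.5, 295.7 and 316 in WT-Veh and 255.0, 3729, 471.7 and 365.7 in HT-Flx, so its difference of 1.11 rested on replicate 2. The same mouse was highest for Egr3 (8498, against 3294 to 4792 in the other 3 HT-Flx mice) and for Homer1 (9479, against 3971 to 6202). Over 23 such genes 13 were higher, with a median of 0.05 that ran from -0.08 to 0.29 when single mice were left out, and the mean log2 level of the list spanned 9.25 to 10.2 in HT-Flx and 9.52 to 9.81 in WT-Veh.

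The remaining lists are given with their medians, beside 0.0062 over all genes. Clock genes had a median of 0.02 over 20 that turned negative in 6 of 18 alternatives, among them a common upper quartile, quantile normalization and the data without WT-Veh replicate 1 (-0.041), with Npas2 at 0.46 (SE 0.18) and Cry1, a repressor of the clock, at 0.27 (SE 0.11, no overlap). Glucocorticoid response genes had a median of 0.02 over 15 (negative under a common upper quartile), neurotrophins and their receptors 0.12 over 14, interferon response genes 0.03 over 24 (15 higher, but 21 with a median of 0.12 without WT-Veh replicate 1) and cholesterol synthesis genes -0.06 over 22. In the last, 18 were lower (21 without that mouse), with Insig1, a target of sterol regulation, at -0.24 (SE 0.09). None of these lists held a gene past correction.

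Markers of cell types were examined to see whether the tissue differed in make-up. Of 16 upper-layer projection neuron markers, 11 were higher, with Otof, Rasgrf2 and Calb1 without overlap, where 1.91% of all genes were. Otof had already been named above from the same values. Rasgrf2, a guanine nucleotide exchange factor, was 4384, 6755, 6528 and 6393 in WT-Veh and 7455, 8147, 9189 and 7932 in HT-Flx (difference 0.46, SE 0.14). The median was 0.06, and -0.015 without WT-Veh replicate 1. Deep-layer markers were lower in 10 of 18 (median -0.04), astrocyte markers in 11 of 16 (-0.05), endothelial and mural cell markers in 10 of 16 (-0.05) and those of meninges and fibroblasts in 11 of 16 (-0.06). The last list turned without WT-Veh replicate 1, with 8 of 16 higher and a median of 0.02. Microglial markers were higher in 8 of 16 (median -0.03, while their mean log2 level was higher by 0.04), with Csf1r, their growth factor receptor, at 0.40 (SE 0.17) and the adaptor gene Tyrobp at -0.20 (SE 0.11, no overlap). Their median was 0.06 without WT-Veh replicate 1, with 10 of 16 higher. Oligodendrocyte and myelin genes were lower in 16 of 22, with a median of -0.06, and in 22 of 22 without WT-Veh replicate 1, with a median of -0.18. Their mean log2 level spanned 10.1 to 10.8 in HT-Flx and 10.2 to 10.8 in WT-Veh, so the groups overlapped. Striatal markers had a median of 0.02, and -0.23 without that mouse.

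Among markers of neighbouring tissue, those of the olfactory bulb and of migrating neuroblasts moved with WT-Veh replicate 1. Of 16 olfactory bulb markers, 12 were tested, of which 9 were lower in HT-Flx with a median of -0.68, and without that mouse the median was 0.06 with 7 of 12 higher. Sp8, a factor of bulb interneurons, reached 992.4 in WT-Veh replicate 1, while the other 7 mice spanned 32.6 to 65.5. The mean log2 level of the markers spanned 6.34 to 9.98 in WT-Veh and 6.22 to 6.90 in HT-Flx, and Eomes alone was listed at 0 in any of the 8 mice. Migrating neuroblast markers were lower in 11 of 13, with a median of -0.34, or -0.09 without that mouse. Among choroid plexus markers, the transthyretin gene Ttr was 17.1, 48.7, 74.8 and 243 in WT-Veh and 7.56, 8.54, 10.6 and 5.93 in HT-Flx (difference -2.83, SE 0.64, adjusted p 0.858). Ttr was low in every HT-Flx mouse and spread widely among WT-Veh mice. Of the 9 tested choroid plexus and ependymal markers 5 were higher and 4 lower, with a median of 0.03, while the mean log2 level over the list was lower by 0.33 and spanned 4.28 to 6.01 in HT-Flx and 5.08 to 5.52 in WT-Veh. Without WT-Veh replicate 1, the lowest of its group for this list, the difference of the mean log2 level was -0.40. Ccdc153 and Tmem212 were listed at 0 in some of these mice.

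**Figure D5:**
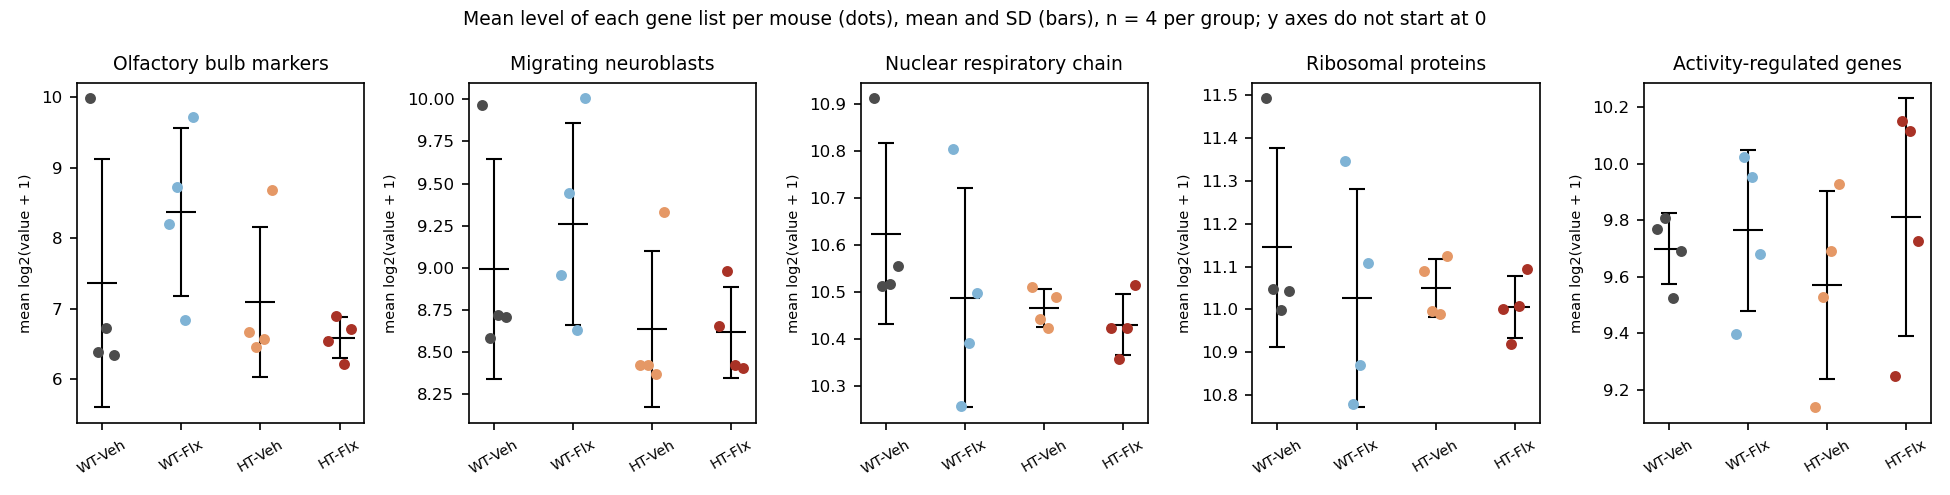
Mean log2(value + 1) of 5 gene lists (y axes, not from 0) in every mouse of the 4 groups (x axes), with dots for mice and bars for the mean and SD (n = 4). WT-Veh replicate 1 is the highest WT-Veh dot in the first 4 panels, and the activity-regulated genes spread from 9.25 to 10.2 among the HT-Flx mice.

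The genes within 5 Mb of Arid1b were listed separately because they lie on the same chromosome segment as the targeted allele. Of 46 such genes, 42 were tested, 26 were higher and 16 lower, with a median of 0.04, and 5 were higher without overlap, where 1.91% of all genes were. Higher without overlap were Dynlt1c, Rps6ka2, Tmem181b-ps, Zdhhc14 and Tmem181a. Tmem181b-ps, a transcribed pseudogene at 6438524 to 6467022, was 2520, 5385, 4800 and 4963 in WT-Veh and 7885, 5607, 9252 and 7382 in HT-Flx. Its difference was 0.81 (SE 0.23, adjusted p 0.858), or 0.56 without WT-Veh replicate 1. In the other 8 mice Tmem181b-ps differed by 0.98 and passed (limma, adjusted p 0.00281), from 3132 to 3973 in WT-Flx and from 6488 to 7438 in HT-Veh. Tmem181a, a protein-coding copy, differed by 0.32 (SE 0.13) and Tmem181c-ps by 0.84, and in the other mice by 0.38 and 1.47. Without WT-Veh replicate 1 the difference of Tmem181a was 0.18. Dynlt1c, which encodes a dynein light chain, was 68.98, 83.4, 78.6 and 133 in WT-Veh and 219.6, 157, 191 and 140.4 in HT-Flx (difference 0.98, SE 0.23, adjusted p 0.858). Its copies Dynlt1b, Dynlt1a and Dynlt1f differed by 0.34, 0.22 and -0.03. These copies are alike in sequence, and how reads were divided among them is uncertain, so the level of any 1 copy is uncertain too. Rps6ka2, a ribosomal S6 kinase gene without such copies nearby, was 1707, 2309, 2226 and 2148 in WT-Veh and 2414, 3292, 3030 and 2864 in HT-Flx (difference 0.47, SE 0.12), and it differed by 0.13 in the other mice.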

How the data were processed

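RNA from the prefrontal cortex of 16 mice was sequenced as paired-end, strand-specific poly(A) libraries. Per the study's methods and its processing notes, the authors quantified reads with Salmon 1.1.0 on GRCm38 with GC bias correction, summed transcripts to genes and divided the estimated counts by DESeq2 1.30.1 size factors. The notes also list R 4.1.1. The deposited signal is this normalized read count for 18424 genes in 16 columns, with 0 columns left out. As 0% of the values above 0 were whole, a count model was not used and depth per sample is unknown, so no counting interval could be given.

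Values were compared on log2(value + 1) with limma 3.58.1 in R 4.3.3 (trended moderation, Benjamini-Hochberg adjustment over all genes tested, threshold 0.05), on genes that reached 10 in 4 or more of the 8 mice. Fold changes of low genes are understated on this scale. Only the 8 mice of a comparison entered its fit. Arid1b alone was tested by an exact permutation test, two-sided, over 70 regroupings. "No overlap" means that the lowest mouse of one group lay above the highest of the other. The members and the 33 gene lists were chosen with earlier results of these data known. The genes named were Arid1b, the 12 higher and 12 lower protein-coding genes with the smallest p, a mean of at least 100 and no overlap, up to 4 genes per list with the smallest p, and the genes that passed in HT-Veh versus WT-Veh. Others were chosen after their values were seen, and 1 of the 12 lower genes is not reported here. The labels number the mice of a group but do not say that equal numbers share a litter or day. Fluoxetine was given to dams, and the labels do not say how many litters a group came from. Mice of a group may be littermates, so p-values measure the spread between these samples and not between litters. A difference between litters cannot be told apart from one by the drug. Alternatives were other pseudocounts, filters, scalings, mice and covariates. The limma script was tested on simulated data.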

Additional observations from a re-analysis of the deposited data

Results flagged for a closer look

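Of 76 groups of 4 mice examined, 7 held a mouse far from the others of its group by Dixon's criterion at its 95% level, which chance exceeds in about 5% of groups. Among the treated heterozygotes, Arid1b was 1545 in HT-Flx replicate 4 against 1661 to 1671 in the others, Tnfrsf8 was 247.4 in replicate 3 against 203.3 to 206.8, Ank1 was 1178 in replicate 2 against 1597 to 1699, and Fam220a was 41.2 in replicate 2 against 5.43 to 6.86. In WT-Veh replicate 1, Pvalb was 819.1 against 1117 to 1132 in the other WT-Veh mice. The olfactory bulb score of that mouse was 9.979 against 6.342 to 6.731, and its score of migrating neuroblast markers was 9.965 against 8.585 to 8.718. The part of these mice in other results was not tested beyond the values given without them.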

How the results depend on the processing

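The number of genes past the threshold in HT-Flx versus WT-Veh was 0 with either pseudocount, a mean of at least 100, both other scalings, the replicate block and each mouse left out. It was 1 with no filter on low values, 3 with all 4 groups in the fit, 8 with sample quality weights and 2 with the bulb score as a covariate. In HT-Veh versus WT-Flx it was 3, and 5 with a pseudocount of 8, 5 with a common upper quartile, 6 with quantile normalization, 0 with all 4 groups in the fit, 8 with quality weights, 1 with the replicate block, 1 with the bulb covariate and from 1 to 5 when single mice were left out (1 without WT-Flx replicate 2 or 4, 5 without WT-Flx replicate 3). The Arid1b difference ran from -0.64 to -0.42 when single mice were left out, and without any 1 HT-Flx mouse its exact permutation p was 0.0571. With the replicate block it was -0.51 (exact sign-flip p 0.125, the smallest possible), and in limma -0.51 (adjusted p 0.858). Whether equal replicate numbers mark pairs is unknown. The correlations of deviations lay between -0.016 and 0.096, and 2 of 4 HT-Flx mice correlated best with their own number. With 4 mice a group these values cannot settle it. The bulb score difference of -0.77 ran from -1.11 to 0.11, the last without WT-Veh replicate 1. The number of genes with an interval within 1.5-fold stayed within 1.5 times the reported number under each alternative. Among the named genes, 448 alternative values kept their direction and call, 14 came to pass the threshold, 8 of them with quality weights, and 0 reversed. Of 33 list medians, 14 kept their sign in all 18 alternatives and 19 did not. The cause of these changes was not tested. Depth is unknown, and 4 mice a group limit the precision.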
